A study of Mus musculus with 6 samples.

Results

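The interferon-stimulated genes described here are a list of 41 gene symbols, all of which were found among the 23402 rows of the deposited expression table. They were split by the interferon that each is best known to answer to, into 30 type I style and 11 interferon gamma style genes, although many of them respond to both. Whole terminal ileum of 6 mice aged 6 weeks was sequenced, 1 RNA library per mouse. The animals were sampled on day 6 of drinking water with dextran sodium sulfate (DSS), an agent that injures the intestinal epithelium. All 6 animals carried floxed Il17ra, the gene of a subunit of the interleukin-17 receptor, and all received DSS. The 3 Cre-positive animals (Il17rafl/fl;Atoh1-cre+) expressed Cre recombinase from Atoh1, which is active in the secretory lineage of the epithelium. The 3 Cre-negative animals (Il17rafl/fl;Atoh1-cre-) were littermates without Cre. The comparison asks how the loss of this receptor from secretory cells bears on the ileum during DSS exposure. Whole tissue also holds many cells in which Cre is not active, and in such bulk samples fewer cells of a type cannot be told apart from less RNA per cell.

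Values are FPKM, fragments per kilobase of transcript scaled to depth. Steps in the lowest values corresponded to an estimated 8180000 to 9510000 fragments per library, with the library labelled Cre-positive 3 the shallowest. Xist and 4 Y-linked genes placed Cre-negative 1, Cre-negative 2 and Cre-positive 1 as male and the other 3 libraries as female, so sex was unevenly spread over the groups. The labelled tissue was checked against 10 enterocyte markers. Villin (Vil1) stood between 568 and 782 FPKM, but the ileal bile acid binding protein gene Fabp6 was between 0.316 and 9.79 FPKM and the ileal bile acid transporter gene Slc10a2 between 0.0669 and 1.94 FPKM. Both of these markers of the distal ileum were thus low for tissue labelled terminal ileum, and the level of the gut that was sampled was not tested. The targeted gene Il17ra stood at 6.04, 5.91 and 6.53 FPKM in the Cre-negative and at 7.93, 8.36 and 6.07 FPKM in the Cre-positive libraries. Its sum over all cells of the tissue therefore did not check the genotypes, and group names here are those of the labels.

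Interferons are cytokines that switch on a shared program of antiviral and immune genes. Type I interferons, and the type III (lambda) interferons to which gut epithelium is especially responsive, signal through JAK kinases to a complex that holds STAT2 and IRF9 and binds the interferon-stimulated response element (ISRE). Interferon gamma, made mainly by T and NK cells, acts through the gamma-activated site (GAS) and induces GTPases, chemokines and antigen presentation genes. Some of these genes are also kept at a basal level in healthy intestine.

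No member passed the test of the Cre-positive against the Cre-negative animals. By limma, 0 of 41 members reached an adjusted p of 0.05 (background 0% of genes). The adjustment ran over the 12695 genes that averaged 1 FPKM or more, and all 41 members were among them. The adjusted p of every member was 0.998. At an unadjusted limma p under 0.05 there were 5 members, all of them type I style and all lower in the Cre-positive libraries, where 1.07% of all genes tested were lower, 2.54% higher and 3.62% either at that level. This count of 5 lower and 0 higher became 0 lower and 1 higher (Oas2) after rescaling the libraries to an equal sum. Among all genes that rescaling gave 54 lower and 1120 higher. Array weights gave 18 lower type I style and 2 lower interferon gamma style genes, against 976 lower and 1741 higher of 12695 genes. The largest weight, 5.90, fell on Cre-negative 2. Among the type I style genes, 25 of 30 estimates were below 0, against 41.6% of all genes, and the median log2 fold change (Cre-positive minus Cre-negative, on the log2(FPKM + 1) scale) was -0.22, against 0.03 over all genes. Among the interferon gamma style genes, 4 of 11 estimates were below 0 and 7 were above 0, against 58.4% of all genes, with a median of 0.07. The type I style median was -0.12 without Cre-negative 2, -0.14 without Cre-positive 3 and -0.044 without both libraries, with 18 of 30 estimates below 0 in that last case.

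**Figure D1:**
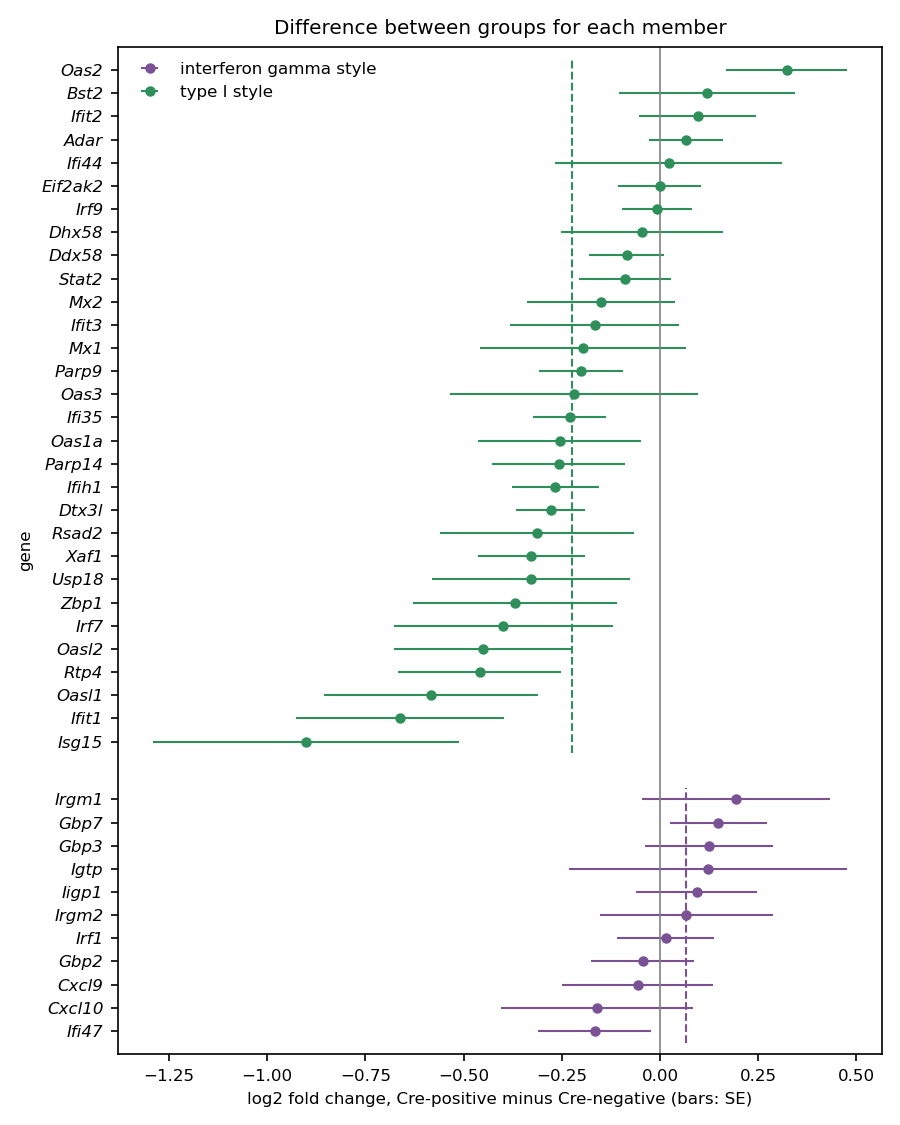
Log2 fold change of each of the 41 members (x axis, Cre-positive minus Cre-negative on the log2(FPKM + 1) scale; bars are standard errors from limma), with type I style genes above and interferon gamma style genes below and a dashed line at each median. The medians lie at -0.22 and 0.07, Isg15 is the lowest at -0.90 and Oas2 the highest at 0.32.

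The spread between single animals was wide, and it was not the same for the 2 classes. The difference between the highest and the lowest library on the log2(FPKM + 1) scale had a median of 0.81 over type I style and 0.57 over interferon gamma style genes, against 0.43 over all genes tested. This range exceeded 0.43 for 22 of 30 type I style and 8 of 11 interferon gamma style genes. The highest value of 17 of 30 type I style genes was in the library labelled Cre-negative 2, where 8.2% of all genes had their highest value. The lowest value of 14 of 30 was in Cre-positive 3, against 13.1% of all genes. For 10 of 30 both held, against 1.47% of all genes: Ifit1, Isg15, Xaf1, Irf7, Oas3, Oasl1, Oasl2, Rsad2, Usp18 and Rtp4. In contrast, 6 of 11 interferon gamma style genes had their highest value in Cre-positive 3, against 22.9% of all genes, and 6 of 11 their lowest in Cre-negative 3, against 38.6% of all genes.

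**Figure D2:**
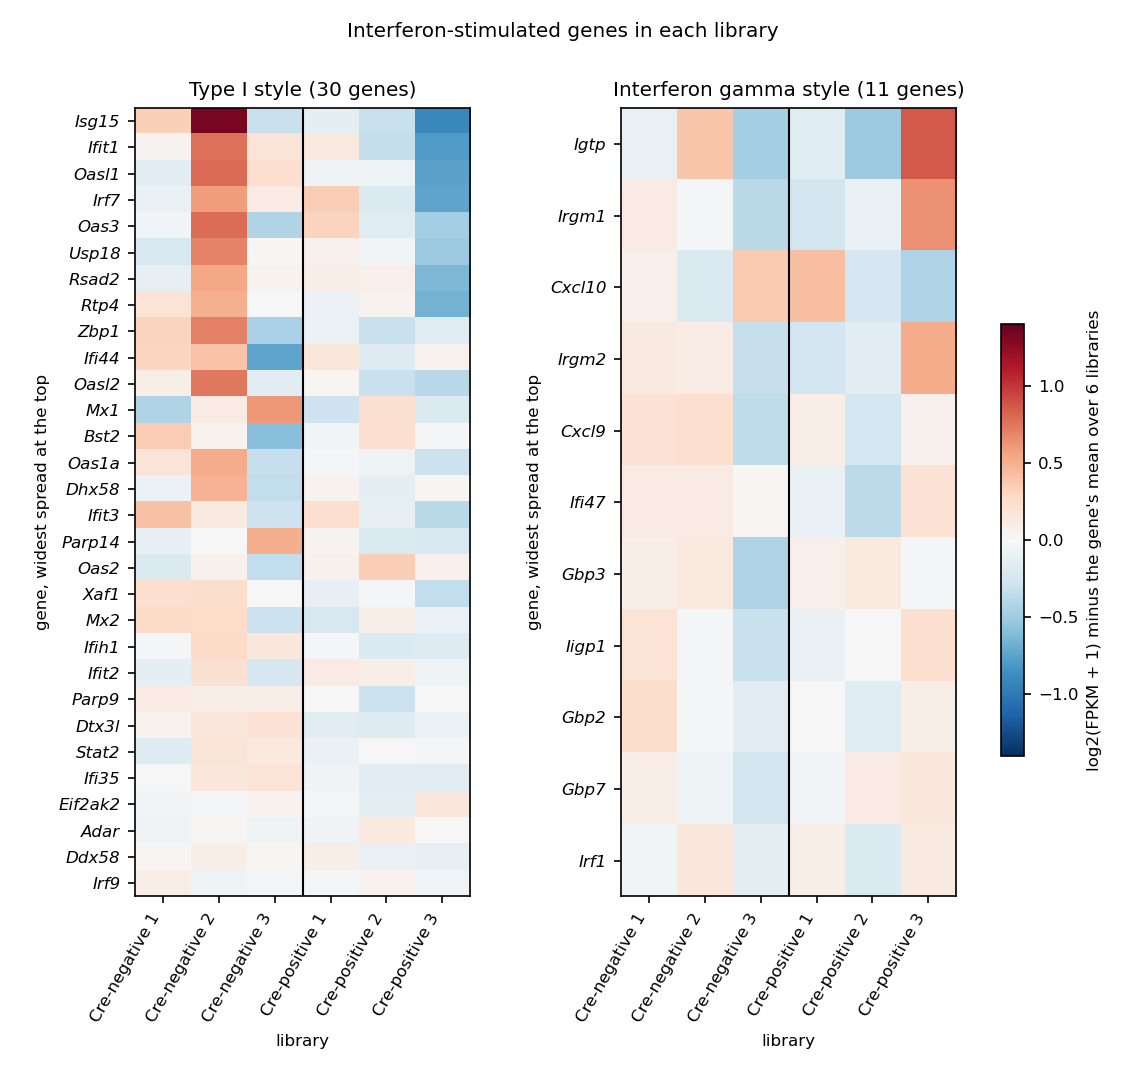
Level of each member in each library as log2(FPKM + 1) minus the gene's own mean over the 6 libraries (colour), with genes in rows from the widest to the narrowest spread and libraries in columns; the black line separates the groups. Most of the upper type I style rows are red in Cre-negative 2 and blue in Cre-positive 3, while Igtp, Irgm1 and Irgm2 are red in Cre-positive 3.

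Isg15, which encodes a ubiquitin-like protein that is attached to other proteins, had the widest spread of all members. It stood at 22.2, 45.5 and 13.9 FPKM in Cre-negative 1, 2 and 3 and at 15.8, 13.9 and 8.87 FPKM in Cre-positive 1, 2 and 3. The lowest and the highest library differed 5.13-fold, and the groups overlapped. The means were 27.2 ± 16.4 FPKM and 12.9 ± 3.60 FPKM (SD, n = 3 each). The log2 fold change was -0.90 (SE 0.39, limma unadjusted p = 0.0502). With 1 library left out it lay between -1.28 (without Cre-negative 3) and -0.46 (without Cre-negative 2). Isg15 lies on chromosome 4 from 156199424 to 156200818 (GRCm38), has 1 annotated transcript of 756 bases, and its values rested on roughly 55 to 320 fragments. Usp18, the protease that removes ISG15 from proteins and also restrains the type I receptor, ranked the libraries alike at the extremes, with 10.2 FPKM in Cre-negative 2 and 3.85 FPKM in Cre-positive 3 (log2 fold change -0.33, SE 0.25).

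Ifit1, whose product binds viral RNA and blocks its translation, followed the same order at both ends. It stood at 18.0, 30.4 and 19.9 FPKM in the Cre-negative and at 19.2, 13.6 and 9.59 FPKM in the Cre-positive libraries. Cre-negative 2 was the highest and Cre-positive 3 the lowest, and Cre-positive 1 lay inside the Cre-negative range. The log2 fold change was -0.66 (SE 0.26, limma unadjusted p = 0.0373). The unadjusted limma p was 0.130 without Cre-negative 2, 0.0796 without Cre-positive 2 and 0.117 without Cre-positive 3, where the log2 fold change was -0.43. Its neighbours on chromosome 19, Ifit2 and Ifit3, encode related proteins. Their log2 fold changes were 0.10 (SE 0.15) for Ifit2 and -0.17 (SE 0.22) for Ifit3. Ifit2 stayed between 2.38 and 3.61 FPKM in all 6 libraries.

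Promoter windows from 250 bases before to 50 bases after the start were taken from RefSeq (GRCm38.p6) for 31 of the 41 members. They were searched on both strands for an ISRE core (GAAA, any 2 bases, GAAA) and a GAS core (TTCNNNGAA, the same on both strands). The 2 stretches below belong to the type I style genes with the widest spread, and capitals mark the ISRE matches, which overlap each other in Isg15.
Isg15 (chr4:156200860-156200911, minus strand): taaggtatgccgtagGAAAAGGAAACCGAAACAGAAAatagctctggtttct
Ifit1 (chr19:34640770-34640828, plus strand): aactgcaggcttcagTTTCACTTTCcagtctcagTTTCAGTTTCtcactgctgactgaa
Isg15 held 3 matches and Ifit1 held 2. An ISRE match was found in 11 of 21 type I style genes with a window (52.4%) and in 7 of 10 interferon gamma style genes (70.0%), against 3.99% of all 27025 genes with windows. A match describes the letters only, and Xaf1, Irf7, Oasl1, Oasl2, Rtp4 and Usp18, which shared the same highest and lowest libraries, had no match or no window.

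The oligoadenylate synthetase family, whose active enzymes make the messenger that activates the RNA-degrading enzyme RNase L, was split. Oasl1, a relative without that activity, stood at 11.2, 22.8 and 15.1 FPKM in the Cre-negative and at 12.2, 12.0 and 7.11 FPKM in the Cre-positive libraries. Cre-negative 2 was again highest and Cre-positive 3 lowest, and the log2 fold change was -0.58 (SE 0.27, limma unadjusted p = 0.0663). Leaving out Cre-negative 2 gave -0.33, and leaving out Cre-positive 3 gave -0.35. Its neighbour Oasl2 (log2 fold change -0.45, SE 0.23) reached 43.8 FPKM in Cre-negative 2 against 19.4 to 27.3 FPKM in the other libraries. The log2 fold change of Oas3 was -0.22 (SE 0.32) and that of Oas1a -0.26 (SE 0.21). Oas2, which lies between 120730333 and 120749853 on chromosome 5 near both of them, went the other way, with 1.86, 2.44 and 1.59 FPKM against 2.43, 3.19 and 2.46 FPKM (log2 fold change 0.32, SE 0.15). The groups of Oas2 overlapped only by Cre-negative 2, which at 2.44 FPKM was just above Cre-positive 1.

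Among transcription factors of the response, Irf7 varied and the others were steady. Irf7, the factor that amplifies type I interferon production, stood at 31.2, 50.5 and 36.2 FPKM in the Cre-negative and at 42.7, 28.9 and 19.6 FPKM in the Cre-positive libraries. The groups overlapped, and the log2 fold change was -0.40 (SE 0.28). Leaving out Cre-negative 2 gave -0.21, Cre-positive 3 gave -0.13 and Cre-positive 1 gave -0.67. Irf9 and Stat2, which act together in the type I complex, were at -0.0081 (SE 0.09) and -0.09 (SE 0.12) in log2 fold change. Irf9 had the narrowest spread of the 41 members, between 18.0 and 20.1 FPKM.

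**Figure D3:**
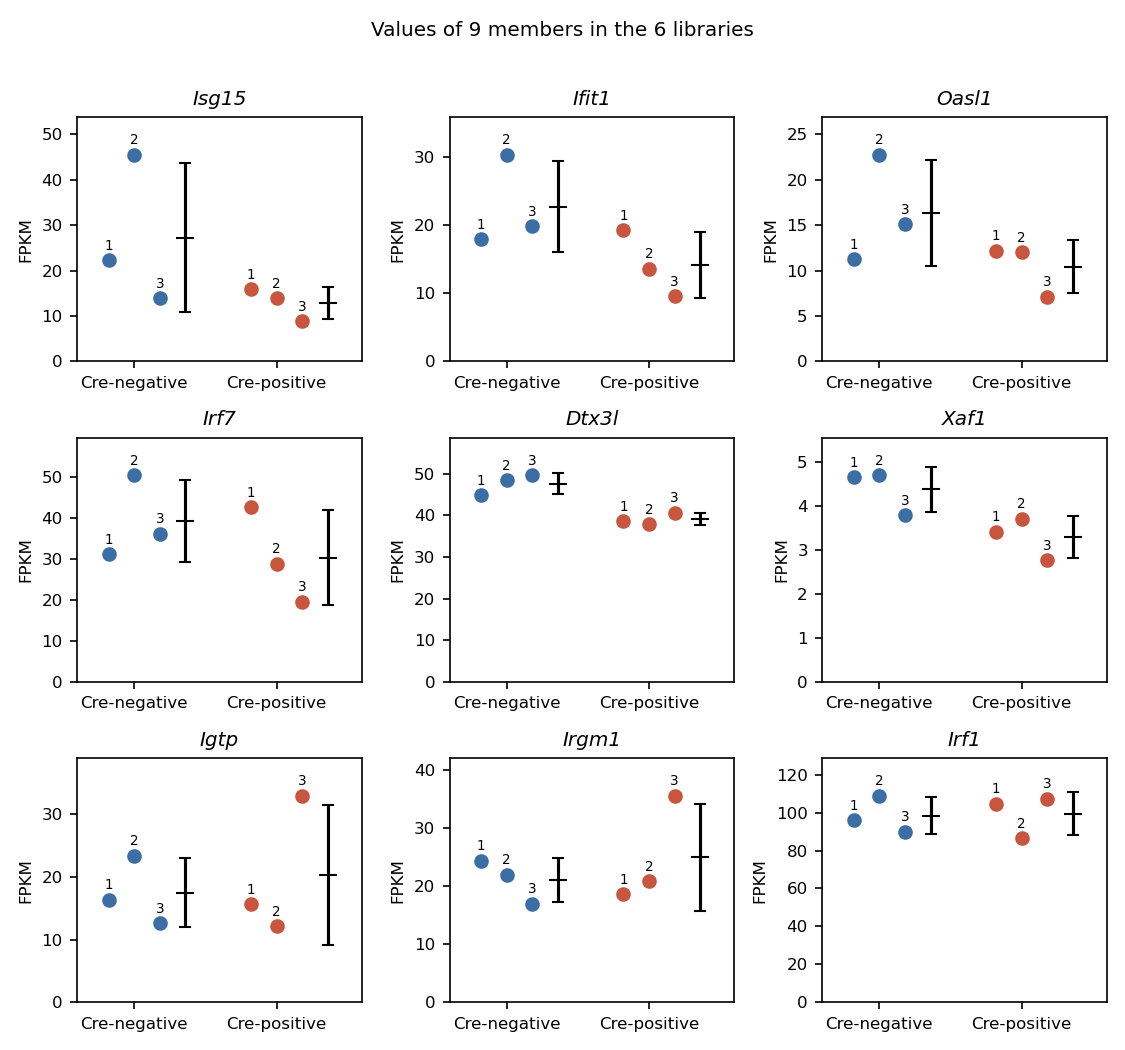
FPKM of 9 members in the 3 Cre-negative (blue) and 3 Cre-positive (red) libraries, numbered by replicate, with the mean and SD of each group in black. Dtx3l and Xaf1 do not overlap between the groups, Isg15, Ifit1, Oasl1 and Irf7 peak in Cre-negative 2, and Igtp and Irgm1 peak in Cre-positive 3.

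A few type I style genes were lower in every Cre-positive than in any Cre-negative library. The groups did not overlap for 4 of 41 members, Dtx3l, Parp9, Ifi35 and Xaf1, all lower, while 2.6% of all genes were lower without overlap, 5.77% higher and 8.37% either. Of these 4, Dtx3l, Parp9 and Ifi35 ranged less between libraries than the median gene, by 0.38, 0.42 and 0.34 on the log2(FPKM + 1) scale, and Xaf1 more, by 0.60. Dtx3l, a ubiquitin ligase that works as a complex with PARP9, stood at 44.8, 48.4 and 49.7 FPKM in the Cre-negative and at 38.7, 37.9 and 40.7 FPKM in the Cre-positive libraries. The means were 47.6 ± 2.53 FPKM and 39.1 ± 1.44 FPKM (SD, n = 3 each). The log2 fold change was -0.28 (SE 0.09), and the unadjusted limma p of 0.0138 was the smallest of the 41. With each library left out in turn the log2 fold change lay between -0.32 and -0.25, and the unadjusted p was 0.0553 without Cre-positive 2. After rescaling the libraries to an equal sum, the groups of Dtx3l, Parp9 and Ifi35 overlapped and the unadjusted p of Dtx3l was 0.210. Xaf1 was then still lower without overlap, Oas2 and Gbp7 were higher without overlap, and among all genes 0.543% were lower and 16.2% higher. The values of Dtx3l rested on about 1725 to 2389 fragments per library, and those of Xaf1 on about 59 to 115.

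Parp9, which encodes the ADP-ribosyltransferase partner of DTX3L, was at 34.3, 33.7 and 33.8 FPKM against 31.6, 25.5 and 31.5 FPKM (log2 fold change -0.20, SE 0.11). Without Cre-positive 2 it was -0.10. The 2 genes lie head to head on chromosome 16 (Dtx3l from 35926511 to 35939151, Parp9 from 35938470 to 35972605) and share 458 exonic bases on opposite strands. The sources used here do not say whether counting used strand, so reads from those bases may have gone to either gene. Parp14, another enzyme of this locus, stood at 40.8, 44.3 and 63.4 FPKM against 45.6, 38.3 and 38.0 FPKM. Here Cre-negative 3 alone was high, the groups overlapped, and the log2 fold change was -0.26 (SE 0.17). Without Cre-negative 3 it was -0.070.

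Ifi35, an interferon-induced leucine zipper protein and the highest type I style gene, stood at 52.4, 58.5 and 59.8 FPKM against 50.6, 47.3 and 47.0 FPKM. The gap between the groups was small beside the spread within them, from 50.6 to 52.4 FPKM, and the log2 fold change was -0.23 (SE 0.09, limma unadjusted p = 0.0391). With median-of-ratios rescaling its groups overlapped. Its unadjusted limma p lay between 0.0199 (without Cre-negative 1) and 0.114 (without Cre-negative 2) when 1 library was left out. Xaf1, a pro-apoptotic antagonist of the inhibitor XIAP, stood at 4.67, 4.71 and 3.80 FPKM against 3.42, 3.72 and 2.77 FPKM. Its lowest Cre-negative and highest Cre-positive values lay close together, and the log2 fold change was -0.33 (SE 0.14, limma unadjusted p = 0.0427). That p lay between 0.0233 (without Cre-negative 3) and 0.140 (without Cre-positive 3) when 1 library was left out.

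Of the 3 cytoplasmic RNA sensors, Ifih1 (MDA5) was at 21.7, 27.0 and 24.7 FPKM against 21.9, 19.1 and 19.5 FPKM. Cre-positive 1 lay just above Cre-negative 1, and the log2 fold change was -0.27 (SE 0.11, limma unadjusted p = 0.0427, and 0.0949 with a sex term). Ddx58 (RIG-I) stayed between 16.7 and 19.3 FPKM (log2 fold change -0.09, SE 0.09). Dhx58 (LGP2), which modulates both, was between 2.81 and 5.77 FPKM (-0.05, SE 0.21). The dsRNA-activated kinase gene Eif2ak2 (PKR) and the RNA editing enzyme gene Adar were also steady, with a highest minus lowest log2(FPKM + 1) of 0.30 and 0.21. Zbp1, a sensor of Z-form nucleic acid, was not, with 32.9, 43.5 and 19.0 FPKM against 25.0, 21.1 and 23.4 FPKM. Both ends of its range were Cre-negative libraries.

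The remaining type I style genes differed in level and order. The GTPase genes Mx1 and Mx2 stood between 1.55 and 4.17 FPKM and between 1.12 and 2.15 FPKM, and the 25 to 51 fragments estimated for Mx2 were the fewest of any member. Mx2 is listed as a polymorphic pseudogene in the annotation. Rsad2 (viperin) and Rtp4 were highest in Cre-negative 2 and lowest in Cre-positive 3. Rsad2 was at 1.07 FPKM in Cre-positive 3 and between 1.95 and 3.64 FPKM elsewhere. Rtp4 was at 5.37 FPKM in that library and between 8.55 and 13.2 FPKM elsewhere (log2 fold change -0.46, SE 0.21). Bst2 (tetherin), which holds budding virus at the cell surface, and Ifi44 had their lowest values in Cre-negative 3, and their log2 fold changes were 0.12 (SE 0.22) for Bst2 and 0.02 (SE 0.29) for Ifi44.

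**Figure D4:**
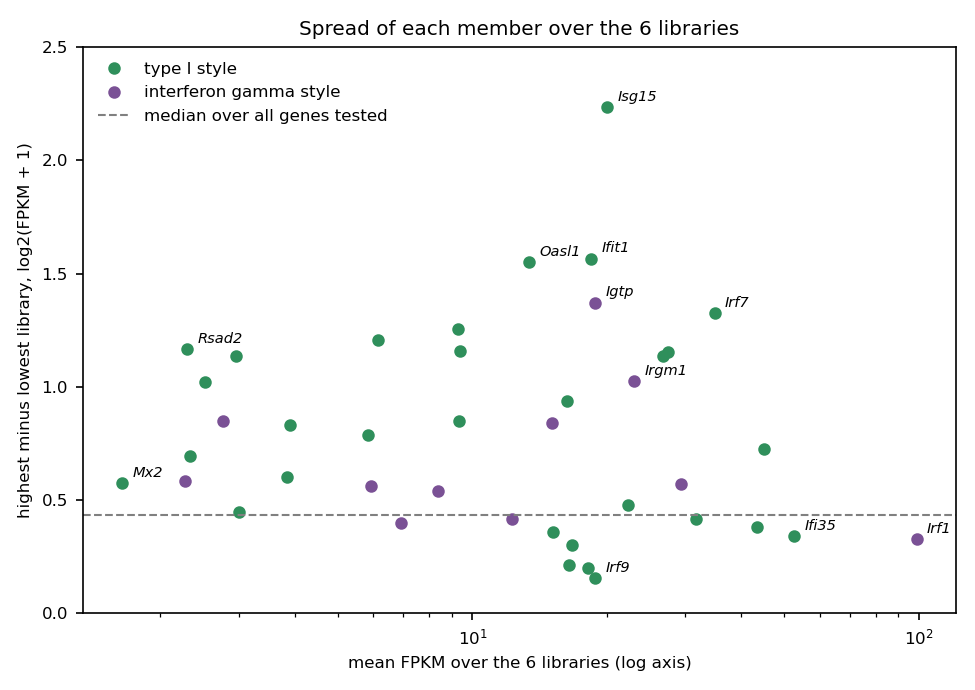
Highest minus lowest library on the log2(FPKM + 1) scale (y axis) against the mean FPKM over the 6 libraries (log x axis) for the 41 members, with the median over all genes tested (0.43) as a dashed line. Isg15 reaches 2.24, Irf9 stands at 0.15, and Irf1 is the most abundant member.

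Interferon gamma style genes were led by Irf1, a transcription factor that interferon gamma induces, which was the most abundant of the 41. It stood at 96.0, 108.9 and 90.0 FPKM in the Cre-negative and at 104.7, 86.4 and 107.3 FPKM in the Cre-positive libraries. The groups covered nearly the same range, and the log2 fold change was 0.015 (SE 0.12). The guanylate-binding protein genes Gbp2, Gbp3 and Gbp7, which encode GTPases that attack pathogen vacuoles, had log2 fold changes between -0.044 and 0.15. Gbp2 stayed between 10.7 and 14.6 FPKM, Gbp3 between 4.12 and 6.56 FPKM and Gbp7 between 5.62 and 7.72 FPKM.

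The immunity-related GTPases, which act on vacuoles that hold parasites and bacteria, all had their highest value in the library labelled Cre-positive 3 (5 of 5: Igtp, Irgm1, Irgm2, Ifi47 and Iigp1). Igtp stood at 16.4, 23.4 and 12.6 FPKM in the Cre-negative and at 15.7, 12.1 and 32.9 FPKM in the Cre-positive libraries. Irgm1 stood at 24.3, 21.9 and 17.0 FPKM against 18.6, 20.9 and 35.6 FPKM. In both genes the other Cre-positive libraries lay inside or just below the Cre-negative range, and the log2 fold changes were 0.12 (SE 0.35) and 0.19 (SE 0.24). Without Cre-positive 3 they were -0.28 and -0.080. Irgm2 reached 21.6 FPKM in Cre-positive 3 and was between 11.6 and 16.2 FPKM elsewhere. Iigp1, with a log2 fold change of 0.09 (SE 0.15), reached 9.93 FPKM in Cre-positive 3 and 9.62 FPKM in Cre-negative 1. Ifi47 was at 31.5, 31.5 and 29.8 FPKM against 27.2, 22.4 and 33.8 FPKM (log2 fold change -0.17, SE 0.14). Leaving out Cre-positive 2 gave -0.027, and leaving out Cre-positive 3 gave -0.31, with groups that did not overlap. Cre-positive 3 also held the lowest Isg15, Ifit1, Oasl1 and Irf7.

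A GAS match was found in 4 of 10 interferon gamma style genes with a window (40.0%) and in 6 of 21 type I style genes (28.6%), against 9.55% of all genes with windows. GAS and ISRE matches stood in the same window in 3 of 10 and 3 of 21 of these genes, against 0.54% of all genes. The 3 stretches below are shown for the steady, most abundant gene and for 2 of the GTPase genes that peaked in Cre-positive 3. Capitals mark the GAS match in each and, after 2 lower-case bases in Igtp and Irgm2, the ISRE match.
Irf1 (chr11:53769909-53769947, plus strand): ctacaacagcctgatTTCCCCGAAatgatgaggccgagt
Igtp (chr11:58199496-58199546, plus strand): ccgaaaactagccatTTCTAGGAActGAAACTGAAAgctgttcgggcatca
Irgm2 (chr11:58214887-58214937, plus strand): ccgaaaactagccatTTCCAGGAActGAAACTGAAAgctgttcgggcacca
In Igtp and Irgm2 the first base of the ISRE match lay 11 bases after that of the GAS match, and 49 of 51 bases of the stretches were identical. These neighbouring genes share 162 exonic bases on the same strand in the annotation, so how their reads were shared out is uncertain. Irf1 had a GAS match and no ISRE match in the same window.

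The chemokine genes Cxcl9 and Cxcl10, whose products draw T cells through the receptor CXCR3, were low and did not follow the GTPases. Cxcl10 stood at 2.86, 2.18 and 3.74 FPKM against 3.91, 2.12 and 1.73 FPKM, with its lowest value in Cre-positive 3. Its log2 fold change was -0.16 (SE 0.24) and 0.014 without that library. Cxcl9 lay between 1.53 and 2.79 FPKM (log2 fold change -0.06, SE 0.19).

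Upstream of the members, transcripts of the interferons themselves were hardly seen. Of 21 ligand genes listed, 19 were in the table and 17 of these were listed at 0 in all 6 libraries. Ifng was at 0.190, 0 and 0.102 FPKM in the Cre-negative and at 0.194, 0.210 and 0.110 FPKM in the Cre-positive libraries, and Ifnl3, a near-identical copy of Ifnl2, was at 0.283 FPKM in Cre-positive 3 alone. At this depth such values rest on very few fragments. The receptors were all expressed, and 0 of 6 receptor genes had an unadjusted limma p under 0.05, against 3.62% of all genes. Downstream of receptors, the log2 fold change was -0.20 (SE 0.13) for Stat3 and 0.09 (SE 0.09) for the kinase gene Tyk2. Ifnar1, a type I receptor chain, was at 13.2, 12.1 and 12.8 FPKM against 14.5, 13.9 and 15.1 FPKM (log2 fold change 0.18, SE 0.09), higher without overlap. Ifngr1, the ligand-binding chain of the interferon gamma receptor, was at 78.6, 79.9 and 91.0 FPKM against 78.3, 73.5 and 70.2 FPKM (-0.16, SE 0.10), lower without overlap by a gap smaller than the spread within either group. Ifnar2 (8.33 to 14.1 FPKM), Ifngr2 (97.4 to 130.6 FPKM), the lambda receptor gene Ifnlr1 (4.95 to 8.64 FPKM) and Il10rb (49.6 to 63.0 FPKM) overlapped between the groups. Over all genes 5.77% were higher and 2.6% lower without overlap.

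The wider pathway showed no common direction. Of 33 other interferon-induced genes tested, 18 estimates were above 0 and 15 below, with a median of 0.02. Over all genes 58.4% were above 0. At an unadjusted limma p under 0.05 there were 1 higher and 0 lower, against 2.54% and 1.07% of all genes. The 1 higher was Slfn8, with a log2 fold change of 0.40. Second by p was Phf11d, with a log2 fold change of 0.30. The highest value of 10 of the 33 was in Cre-negative 2, against 8.2% of all genes. The lowest value of 20 of the 33 was in Cre-negative 3, against 38.6% of all genes. The list of other interferon gamma GTPases and targets had 16 of 22 estimates above 0 (median 0.07), against 58.4% of all genes. Estimates in this list ran from -0.70 to 0.57. At an unadjusted limma p under 0.05, 2 of the 22 were higher and 0 lower, against 2.54% and 1.07% of all genes. The list was led by Ciita (0.57, SE 0.12) and Nlrc5 (0.57, SE 0.20), the activators of MHC class II and class I genes. Both were highest in Cre-positive 3, at 14.2 and 7.15 FPKM. In the whole list, 4 of 22 genes had their highest value there (18.2%), against 22.9% of all genes. Of 18 sensors and adaptors, Tlr9 had an unadjusted limma p under 0.05 (log2 fold change 0.69, SE 0.25), and Tlr7 followed with 0.32 (SE 0.14). Of 8 brakes on interferon signalling, none reached that level, and the leading estimates were Ptpn6 (0.42, SE 0.20) and Socs3 (-0.80, SE 0.40). Socs3, which STAT3 induces, stood at 33.4 FPKM in Cre-negative 2 and between 7.40 and 16.9 FPKM elsewhere.

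Markers of other cells also differed between libraries. The summed FPKM of 10 B cell markers was 80.7 and 98.3 in Cre-positive 1 and 2 and between 8.54 and 18.3 in the other libraries, with Pax5 and Fcer2a listed at 0 in at least 1 of those, and 9 of 10 had an unadjusted limma p under 0.05, all higher in the Cre-positive libraries. Tlr9 (3.71 and 3.99 FPKM) and Ptpn6 (20.4 and 21.7 FPKM) had their highest values in the same 2 libraries. The summed FPKM of 12 T and NK cell markers was 79.4 in Cre-positive 3 and between 109.9 and 156.7 elsewhere, and that of enterocyte markers was also lowest there (5004 against 5993 to 11408). Macrophage markers summed to between 145.5 and 198.1 FPKM and plasmacytoid dendritic cell markers, Bst2 among them, to between 59.9 and 97.8 FPKM, with the groups overlapping in both lists. The part of these cell types in the members' values was not tested.

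Sex was set beside the result in 2 ways. Within the male libraries (Cre-positive 1 against Cre-negative 1 and 2), the median difference was -0.14 over type I style and -0.12 over interferon gamma style genes, against -0.04 over all genes tested. Within the female libraries (Cre-positive 2 and 3 against Cre-negative 3), it was -0.17 and 0.38, against 0.14 over all genes. With a sex term in the fit, the medians were -0.18 and 0.07, and 1 member instead of 5, Dtx3l, had an unadjusted limma p under 0.05. Dtx3l was lower, and over all 12695 genes that fit gave 127 lower and 326 higher at that level.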

How the data were processed

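RNA of 6 ileum samples was sequenced as directional libraries, per the labels' protocols. The authors deposited 1 table of FPKM values, with 1 column per library. Per the submitters' processing notes, reads were handled with Cuffnorm and Cufflinks, bedtools, STAR, SAMtools, Trimmomatic and FastQC on GRCm38 (mm10), without versions or settings. The sources used here do not give the scaling between libraries, the sharing of reads among near-identical genes or the use of strand. No count model was fitted to FPKM. Depth was estimated from the value of 1 fragment in genes with 1 annotated transcript of over 1500 bases (GENCODE M21), and fragments per gene from the longest transcript. Both are approximate.

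Columns were matched to samples by titles. The labels call the samples separate mice. Genes averaging 1 FPKM or more were tested on log2(FPKM + 1), which understates changes of low genes. The test was limma's two-sided moderated test with an intensity trend and Benjamini-Hochberg adjustment over 12695 genes, at a threshold of 0.05. It was checked on simulated data. The members and lists were chosen with earlier results of these data known, so the list gets no p of its own. Values in every library are given for members with the 4 highest means or 3 widest ranges of their class, an unadjusted p under 0.05 or groups that do not overlap, and others are given by range. Of the other lists, receptors, ligands with a mean of at least 0.1 FPKM and the 2 smallest p values of each list are named, except 1 gene that is not reported here; Ifnl3, Zbp1, Oas2 and other genes outside this rule were named after their values were seen. No pair of libraries held identical values, and Spearman's rho over the tested genes, not independent replicates, was 0.966 to 0.982. The fit used limma 3.58.1 in R 4.3.3, and tables and figures used numpy 2.4.6, pandas 2.3.3 and matplotlib 3.10.9 in Python 3.11.15.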

Additional observations from a re-analysis of the deposited data

How the results depend on the processing

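The count of members past the adjusted threshold was 0 under all alternatives run: pseudocounts of 0.1 and 5, no filter or a filter of 5 FPKM (31 members), 3 rescalings, no trend, array weights, the replicate block, a sex term and each library left out. The smallest adjusted p of any member was 0.0895, with array weights. The number of members whose groups did not overlap was 4, and 5 to 14 when 1 library was left out, with 9, 12 and 14 for Cre-negative 1, Cre-negative 3 and Cre-positive 1, where 20.5%, 17% and 26.5% of all genes did not overlap, against 8.37% with all libraries. Without Cre-negative 2 and Cre-positive 3 together, an alternative chosen after the data were seen, it was 8, against 27.2% of all genes. Rescaling to an equal sum gave 3, of which 1 was lower. Type I style genes lower at an unadjusted limma p under 0.05 numbered 5, and 1 to 8 with 1 library left out. Over all genes that level gave 323 higher and 136 lower. These were 288 and 207 with median-of-ratios rescaling, 272 and 220 with quantile normalization, and 1120 and 54 with an equal sum. Array weights gave 1741 higher and 976 lower. With 1 library left out, 81 to 374 of all genes were lower, with 231 without Cre-negative 3, where the 8 were found. The type I style median was below 0 under every alternative, between -0.30 and -0.12 with 1 library left out, and -0.044 without those 2 libraries. Rescaling to an equal sum moved the median of all genes from 0.03 to 0.13, and the type I style median was then -0.12. The interferon gamma style median was between -0.080 and 0.12 with 1 library left out, turning below 0 without Cre-negative 3 or Cre-positive 3, and it was -0.085 with array weights and -0.045 without Cre-negative 2 and Cre-positive 3. Of 268 alternative values for 15 named members, 255 kept direction and side of the threshold. Part of this was fixed in advance, because the filters, the missing trend and the replicate block leave each log2 fold change as it was. No member lay near the threshold to begin with, at an adjusted limma p of 0.998. Irf1 turned to -0.025 with median-of-ratios rescaling and -0.20 with array weights, and ranged from -0.046 to 0.11 with 1 library left out. Igtp turned to -0.50 with array weights and -0.055 without the 2 libraries, and ranged from -0.28 to 0.41. Without the 2 libraries Irgm1 was -0.045 and Irf7 0.064. Irgm1 ranged from -0.080 to 0.37 and Cxcl10 from -0.41 to 0.014 with 1 library left out. The causes were not tested. Same-numbered libraries had correlations of deviations of -0.13, 0.03 and -0.11. These gave no sign that replicate numbers paired the animals, but they could not exclude it. A replicate block that holds 1 library of each group cannot change a log2 fold change. The type I style median of -0.22 and the interferon gamma style median of 0.07 were therefore fixed. The 4 non-overlapping members are counted without the fit and could not change either. Only p values could change, and the count past the threshold stayed at 0. At an unadjusted limma p under 0.05 the fit with the block gave 5 type I style genes lower and 1 higher (Oas2). Over all 12695 genes it gave 113 lower and 291 higher. The unadjusted limma p of Isg15 was then 0.0126, while those of Ifi35 and Ifih1 rose to 0.107 and 0.103. Low members such as Mx2, Cxcl9 and Cxcl10 rest on 25 to 82 fragments.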
